A study of Bubalus bubalis with 8 samples.

Results

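Vimentin (VIM) and 7 genes of the contractile cytoskeleton, ACTA2, TAGLN, CNN1, MYL9, TPM1, TPM2 and CALD1, were followed in buffalo mammary epithelial cells (MECs) before and after heat stress. They were taken as genes of mesenchymal and myoepithelial identity, and every probe that the array design names for one of them was used, whatever its value. They account for 8 of 24839 gene names and for 29 of 43653 probes. One of the 29, TPM1 probe A_73_P200327, lay in a region that was dark on the control array and was left out. Of the other 28, 18 were well above background on all 7 arrays other than 30 min and 6 on none of these 7. VIM had 5 of the 18 probes, TPM1 6, TAGLN, MYL9 and CALD1 2 each and ACTA2 1, while CNN1 and TPM2 had none.

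The MECs came from 1 adult buffalo and were used at passage 10, on collagen-treated plates. Unstressed cells (CTR) stayed at 37 °C, and the heat-stressed cells had 1 h at 42 °C and then recovered at 37 °C for 30 min or for 2, 4, 8, 12, 16 or 24 h before harvest. All cells, CTR included, came from the same primary cells, were harvested with trypsin and were female. Each condition was measured on 1 bovine array, with Cy3-labelled RNA, so no condition has a replicate, no test was made, and the number of arrays limits the precision. The first slide carried CTR and the 8, 12 and 24 h samples, and the second slide carried the 4 others, so that for those slide and condition cannot be told apart. A level is the log2 intensity of a probe above the 75th percentile of its array, and a change is its difference from CTR. Levels called early are those of 30 min, 2 and 4 h, in this order, and levels called late are those of 8, 12, 16 and 24 h. The SD between spots of 1 probe on an array, over the bright probes spotted several times, was 0.18 (8 h) to 0.50 (16 h) on the 7 arrays other than 30 min. The error of a change made from it was 0.29 at 8 h to 0.55 at 16 h, and it leaves out the spread between cultures. The 30 min levels rest on the deposited log2 table, since the scanner intensities of that array departed from them. The slide given for 30 min is that of the scan.

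Vimentin is the type III intermediate filament protein of fibroblasts and other mesenchymal cells, and epithelial cells often gain it in culture. The other genes serve the contraction of smooth muscle and of the myoepithelial cells that squeeze milk from the alveoli. ACTA2 is smooth muscle actin, and MYL9 is the regulatory light chain of the myosin that pulls on it. TPM1 and TPM2 are tropomyosins, which lie along the actin filament, CALD1 (caldesmon) and CNN1 (calponin) bind actin and restrain the myosin motor, and TAGLN (transgelin) cross-links actin. Many of these genes are targets of the serum response factor SRF, and they are also expressed by myofibroblasts.

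The 60-base probe sequences that carry the contrasts below are shown in lower case. For both TPM1 probes with the deepest fall at 16 h, capitals mark the bases that the 2 do not share in runs of 8 bases or more. These 2 probes share 43 bases, with a longest common run of 27. Sequences are those of the array design, 5′ to 3′, and the buffalo transcripts may differ from them. Coordinates are the bovine ones of the design, whose genome build is not given in the sources used here.

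VIM A_73_P339206: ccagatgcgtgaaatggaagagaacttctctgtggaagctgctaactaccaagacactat
VIM A_73_P252526: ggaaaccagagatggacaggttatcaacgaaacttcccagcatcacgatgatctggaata
TAGLN A_73_P291026: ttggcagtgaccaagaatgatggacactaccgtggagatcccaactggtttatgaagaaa
MYL9 A_73_P253891: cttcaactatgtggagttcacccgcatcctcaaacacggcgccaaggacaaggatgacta
TPM1 A_73_P310201: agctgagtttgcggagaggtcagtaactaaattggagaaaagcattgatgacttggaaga
TPM1 A_73_P419024: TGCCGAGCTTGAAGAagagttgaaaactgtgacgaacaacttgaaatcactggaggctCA
TPM1 A_73_P309193: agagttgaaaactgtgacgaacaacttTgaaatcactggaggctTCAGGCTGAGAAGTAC
CALD1 A_73_P103601: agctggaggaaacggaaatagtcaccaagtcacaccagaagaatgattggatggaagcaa
CALD1 A_73_P371341: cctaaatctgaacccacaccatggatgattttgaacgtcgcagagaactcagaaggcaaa

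The VIM probes lie on chromosome 13, plus strand, A_73_P339206 at chr13:31481628-31481687 and A_73_P252526 at chr13:31482880-31483759, where its 60 bases are spread over 880 and so cross an intron. The TAGLN probe lies at chr15:26325607-26326009 and the MYL9 probe at chr13:66240988-66241047, both on the plus strand. TPM1 is on the minus strand, with A_73_P310201 at chr10:47343149-47344653 and A_73_P419024 at chr10:47345496-47345555. The design places only 16 bases of A_73_P309193, at chr10:47341285-47341300. The CALD1 probes lie at chr4:102348571-102348628 (A_73_P103601) and chr4:102280583-102280642 (A_73_P371341), plus strand.

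The contractile genes were far below CTR early, while VIM moved less, was lowest at 4 h and was near its CTR level at 24 h. Over the 13 measured contractile probes the median change was -2.68, -2.52 and -1.82 early, and -0.70, -0.77, -1.21 and -0.23 late. Over the 5 VIM probes the median change was -0.59, -0.92 and -1.37 early, and -0.38, -0.18, -0.39 and 0.03 late. The median over all 8051 probes measured on the same arrays lay between -0.35 (30 min) and -0.06 (16 h). In these bulk samples fewer cells of a type and less RNA per cell cannot be told apart.

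**Figure D1:**
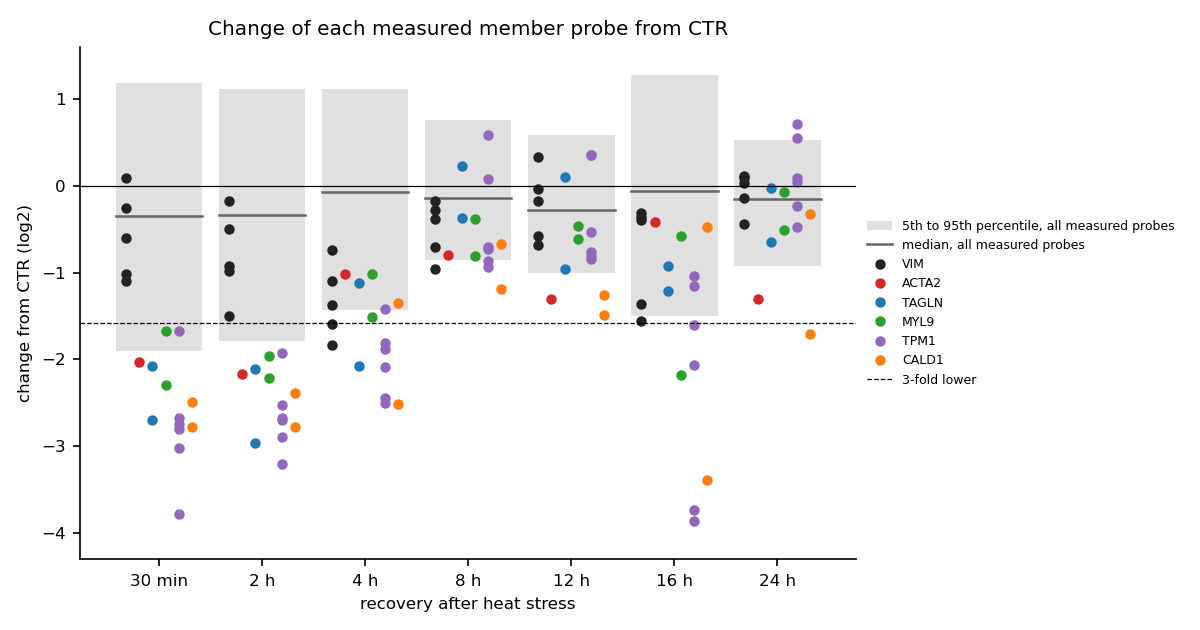
Change of each of the 18 measured probes from CTR (log2, y axis) by recovery time (x axis), coloured by gene. Grey boxes give the 5th to 95th percentile and the grey bar the median over all 8051 measured probes; the dashed line is 3-fold lower. All 13 contractile probes lie beyond 3-fold lower at 30 min and 2 h, and the 5 VIM probes lie above that line at both times.

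Probes at least 3-fold lower than CTR were counted among those well above background on both arrays, and set beside the same share of all probes. At 30 min 13 of 18 probes of the 8 genes were lower (5.36% of all probes), and 0 were higher (3.17%). At 2 h 14 of 19 were lower (8.97% of all) and 0 higher (2.34%). At 4 h it was 11 of 20 (5.27%) with 0 higher (1.64%). On the main scale the lower probes thus made up most of those measured at each early time point, and a far smaller share of the array.

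At 8 h and 12 h, 0 of 20 probes were 3-fold lower (0.136% and 0.476% of all) and 0 were higher (0.389% and 0.0458%). At 16 h 6 of 18 were lower (3.84%) and 0 higher (2.88%). At 24 h 1 of 19, CALD1 probe A_73_P103601, was lower (0.471%) and 0 were higher (0.0438%). With quantile normalization, or with the local deviation of the array subtracted, that count was 0. The members' share was thus above that of the array on the 4 arrays of the second slide and rested on 1 probe at 24 h.

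The 30 min, 2 h and 4 h counts depended on choices of scale or background correction. At 2 h 9 of 19 probes were 3-fold lower with normexp background correction (1.87% of all probes). With the median of each array it was also 9 of 19 (2.77%). With the scanner intensities at 30 min, 10 probes could be measured, of which 1 was 3-fold lower and 2 were higher, beside 68.5% of all probes higher. With the median of each array in place of the 75th percentile, 0 of 20 probes passed at 4 h. That scale moved the median of all measured probes at 4 h from -0.07 to 1.01 and that of the 18 probes from -1.55 to -0.46. It shifts every probe of an array by 1 constant, so the difference between these medians, -1.48, is the same on both scales by construction.

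VIM was well above background with all 5 probes on every scanner array used. Its level in probe A_73_P252526 was 7.48 in CTR, 6.88, 6.56 and 5.65 early, and 7.09, 6.90, 5.92 and 7.33 late. The 4 h and 16 h arrays were lowest and differed by less than their spread, and in the order of its levels only the step from 2 h to 16 h exceeded the spread. At 4 h this probe was 3.56-fold lower than CTR, a change of -1.83 with an error of 0.37. Probe A_73_100037 was at 6.13 in CTR, 5.87, 5.64 and 5.04 early, and 5.85, 6.09, 4.77 and 6.16 late. It repeated the dips at 4 h and 16 h, with changes of -1.09 and -1.36. The 16 h dip was shallower with the local deviation of that array subtracted, where the changes of A_73_P252526 and A_73_100037 were -0.71 and -0.76.

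Probe A_73_P339206 held the steadiest VIM levels, 5.91 in CTR, 5.99, 5.73 and 5.17 early, and 5.73, 6.24, 5.54 and 5.99 late. No step in its order of levels exceeded the spread between spots, and its change at 4 h was -0.73. The remaining probes, A_73_P433496 and A_73_P100011, lie next to each other at chr13:31476555-31476677, toward the 5′ end. A_73_P100011 went from 5.13 in CTR to 4.03, 3.62 and 3.76 early, and was at 4.42, 4.44, 4.81 and 4.69 late. It was lowest at 2 h, 2.83-fold below CTR. A_73_P433496 went from 2.73 in CTR to 1.71, 1.76 and 1.14, and was at 1.78, 2.55, 2.34 and 2.84 late. Of the 5 VIM probes 3 had their lowest level at 4 h, 1 at 2 h and 1 at 16 h. Only 2 of the 5 were 3-fold lower at 4 h and at no other time point, and 1 of them with the local deviation subtracted.

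**Figure D2:**
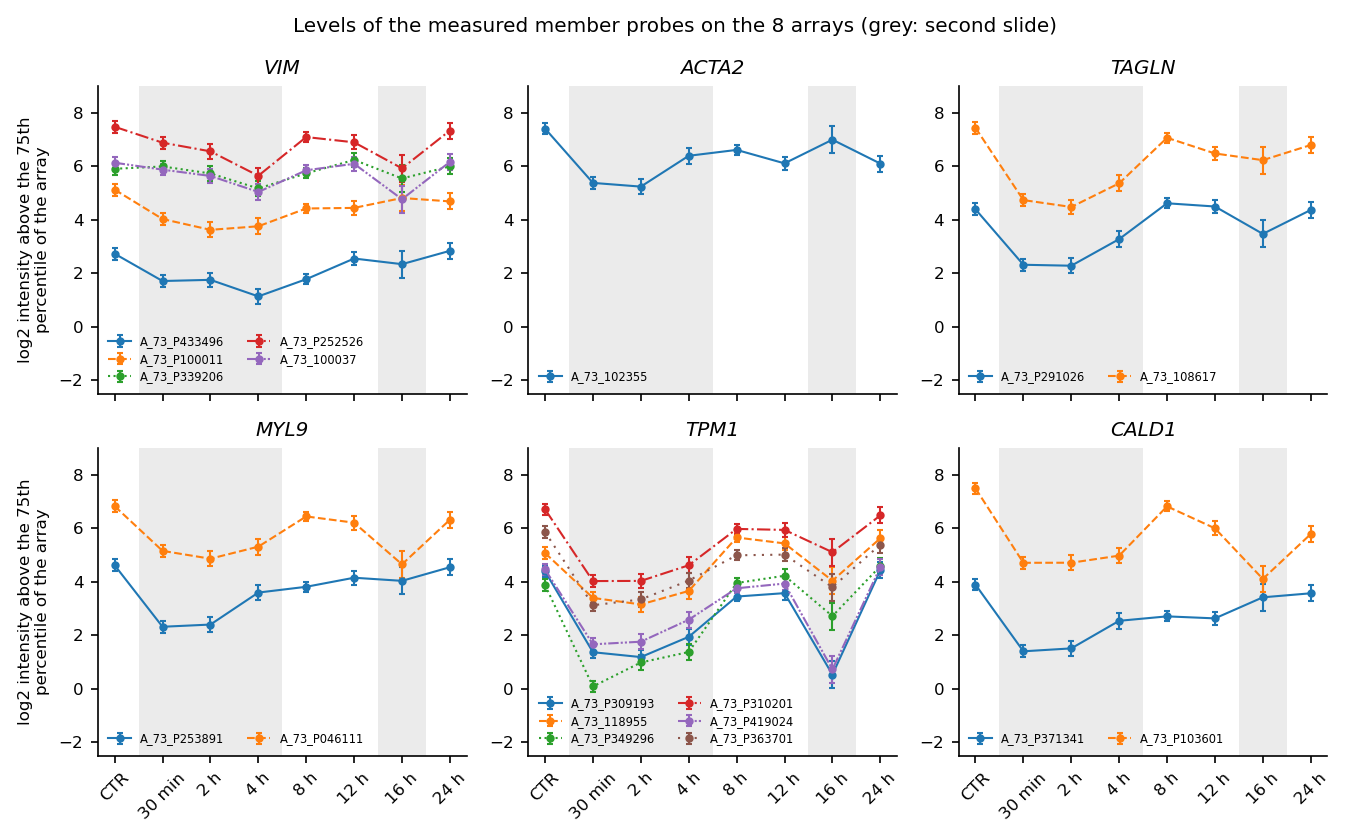
Level of each measured probe (log2 intensity above the 75th percentile of its array, y axis) on the 8 arrays in order of recovery time (x axis), by gene. Bars are the SD between spots of 1 probe on the array (that of CTR at 30 min), and grey marks the arrays of the second slide. ACTA2, TAGLN, MYL9, TPM1 and CALD1 drop from CTR to 30 min and 2 h, and all 6 TPM1 probes are lower at 16 h than at 12 h, 2 of them below their early levels.

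ACTA2 has 1 probe, A_73_102355, on chromosome 26. Its level was 7.41 in CTR, 5.38, 5.24 and 6.39 early, and 6.61, 6.11, 6.99 and 6.10 late. CTR was highest and 30 min and 2 h were lowest, and the step from 24 h down to 30 min was the only one between neighbouring levels larger than the spread. The fold below CTR was 4.08 at 30 min and 4.49 at 2 h. ACTA2 was 2.46-fold lower at 12 h. At 24 h it was 2.47-fold lower, a change of -1.31 with an error of 0.37, whereas at 16 h its change of -0.41 was within the error of 0.55.

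MYL9, whose phosphorylation switches on smooth muscle myosin, has 2 measured probes. Probe A_73_P253891 was at 4.62 in CTR, 2.32, 2.40 and 3.60 early, and 3.81, 4.15, 4.03 and 4.54 late. Its levels at 30 min and 2 h were 4.92-fold and 4.65-fold below CTR, and at 24 h it was within the error of CTR (with the local deviation subtracted, -0.41, beyond the error of 0.37). Probe A_73_P046111 was at 6.83 in CTR, 5.16, 4.86 and 5.31 early, and 6.44, 6.21, 4.65 and 6.32 late. The 2 probes were alike in their early fall and parted at 16 h, where A_73_P046111 changed by -2.17 and A_73_P253891 by -0.58. On the 16 h array bright neighbours of A_73_P046111 were 0.88 (log2) below their usual level (local deviation -0.88), against 0.03 for A_73_P253891, and with it subtracted the changes of both probes were -1.26 and -0.82, which differ by less than the error of 0.55.

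TAGLN, an early marker of smooth muscle differentiation, has 2 measured probes. Probe A_73_108617 went from 7.44 in CTR to 4.74 at 30 min and 4.48 at 2 h, and was then at 5.36 at 4 h and 7.06, 6.48, 6.23 and 6.79 late. Its fold below CTR was 6.50, 7.77 and 4.21 early. Probe A_73_P291026 went from 4.39 in CTR to 2.32 and 2.28, and was then at 3.28 at 4 h and 4.62, 4.50, 3.47 and 4.37 late. It was 4.21-fold lower at 30 min and 4.31-fold lower at 2 h, and its changes on the first slide were 0.23, 0.10 and -0.02, each within the error. With the local deviation subtracted these were -0.72, -0.80 and -0.60, each beyond the error, so that a return to the CTR level depends on that setting. A_73_108617 stayed below CTR at 12 h by more than the error (change -0.96).

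TPM1, which makes alpha-tropomyosin in muscle and shorter forms in other cells, gave the largest fall among the 18 measured probes. All 6 measured probes were 3-fold lower at 30 min and at 2 h, 5 at 4 h and 4 at 16 h. Probe A_73_P310201 was at 6.71 in CTR, 4.03, 4.03 and 4.62 early, and 5.98, 5.94, 5.10 and 6.48 late. Its 3 early levels were the lowest, and the step from 2 h up to 4 h and that from 16 h up to 12 h exceeded the spread. Probe A_73_P363701 was at 5.86 in CTR, 3.12, 3.34 and 4.05 early, and 4.99, 5.02, 3.80 and 5.39 late, with 16 h below 4 h.

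At 16 h the changes of the 6 TPM1 probes ranged from -3.86 to -1.03. A_73_P309193 was at 4.39 in CTR, 1.37, 1.19 and 1.94 early, and 3.45, 3.58, 0.53 and 4.43 late. A_73_P419024, which shares most of its sequence, was at 4.46 in CTR, 1.66, 1.76 and 2.58 early, and 3.76, 3.93, 0.73 and 4.55 late. Both had their lowest level at 16 h, 14.5-fold and 13.3-fold below CTR, and both returned to within the error of CTR at 24 h. The other 4 probes had changes between -2.06 and -1.03 at 16 h.

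Since A_73_P309193 and A_73_P419024 share 43 bases, they are not 2 separate readings of TPM1, although the counts and medians given here hold both. With 1 value per gene, the median over the 6 measured genes was -2.21, -2.35 and -1.48 early. It was -0.66, -0.59, -1.22 and -0.31 late. On the 16 h array their bright neighbours deviated by -0.57 and -1.04, and the part of this in the fall was not tested. With the local deviation subtracted, their changes at 16 h were -3.18 and -2.60, and those of the other 4 probes -2.29 to -0.65. A_73_P363701, at -2.29, then differed from A_73_P419024 by less than the error of 0.55. A_73_P349296, which the design places across an intron at chr10:47341461-47343078, had its lowest level at 30 min, 0.09 against 3.87 in CTR, a 13.8-fold difference that rests on the deposited value of that array. It was at 0.98 at 2 h, 1.38 at 4 h, and 3.95, 4.23, 2.72 and 4.58 late.

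A_73_118955 and A_73_P253591 overlap by 41 bases, of which 39 are the same. A_73_118955 was at 5.07 in CTR, 3.40, 3.15 and 3.66 early, and 5.66, 5.43, 4.04 and 5.62 late, so that it stood above CTR at 8 h and 24 h by 0.58 and 0.55. A_73_P253591 was dimmer, at 0.87 in CTR, 1.11 at 8 h and 1.05 at 12 h. It was not well above background at 2, 16 and 24 h. It was at least 7.89-fold, 4.55-fold and 1.95-fold lower on these arrays, each against the lowest level measured well above background on that array or its own level, whichever was higher. At 4 h, where it was measured at -1.06, it was 3.81-fold lower. A_73_P247501, which has no position in the design, stayed at background on the 7 scanner arrays used. The probe left out, A_73_P200327, was at 3.93 in CTR, 2.64, 3.14 and 3.68 early, and 4.40, 4.54, 2.87 and 4.69 late.

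CALD1 has 3 probes, 2 of them measured throughout. A_73_P103601 was at 7.49 in CTR, 4.71, 4.71 and 4.98 early, and 6.82, 6.00, 4.11 and 5.78 late. It was below CTR at every time point by more than the error, by 10.4-fold at 16 h and by 3.27-fold at 24 h. A_73_P371341, which lies toward the 5′ end, was at 3.89 in CTR, 1.40, 1.51 and 2.54 early, and 2.71, 2.63, 3.42 and 3.57 late. Both fell at 30 min and 2 h, by 5.22-fold to 6.88-fold, and they parted at 16 h, where A_73_P371341 was 1.39-fold lower.

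The third CALD1 probe, A_73_P041261, was at 2.27 in CTR, -0.21 and 0.23 at 2 and 4 h, 1.64 and 1.44 at 8 and 12 h and 1.46 at 24 h, and was not well above background at 16 h. It was 5.59-fold lower at 2 h and at least 7.28-fold lower at 16 h. At 30 min, where it fell below the detection limit used, it was at least 5.13-fold lower. Within CALD1 the 2 probes toward the 3′ end thus fell more at 16 h than the 5′ probe, A_73_P371341, whose change of -0.47 was within the error of 0.55. Bright neighbours of A_73_P371341 deviated by 0.48 at 16 h and by 0.20 in CTR. With the local deviation subtracted its fall at 16 h was larger and passed the error.

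CNN1 and TPM2, the remaining smooth muscle proteins of the set, had no probe well above background in CTR. CNN1 probe A_73_P349531, at the edge of the dark region, was not well above background on any array. CNN1 probe A_73_116127 was well above background at 4 h and 16 h alone, at levels of 1.96 and 2.62, against -2.51 in CTR, where it was not. Against the detection limit of CTR it was at least 8.10-fold higher at 4 h and at least 12.8-fold higher at 16 h. The other CNN1 probe did not show it, and the measured probes of the other contractile genes were below CTR on both arrays. Of the 5 TPM2 probes, 4 were not well above background on any array. A_73_P252846 passed at 4 h alone, at -0.70, at least 1.28-fold above the CTR limit.

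**Figure D3:**
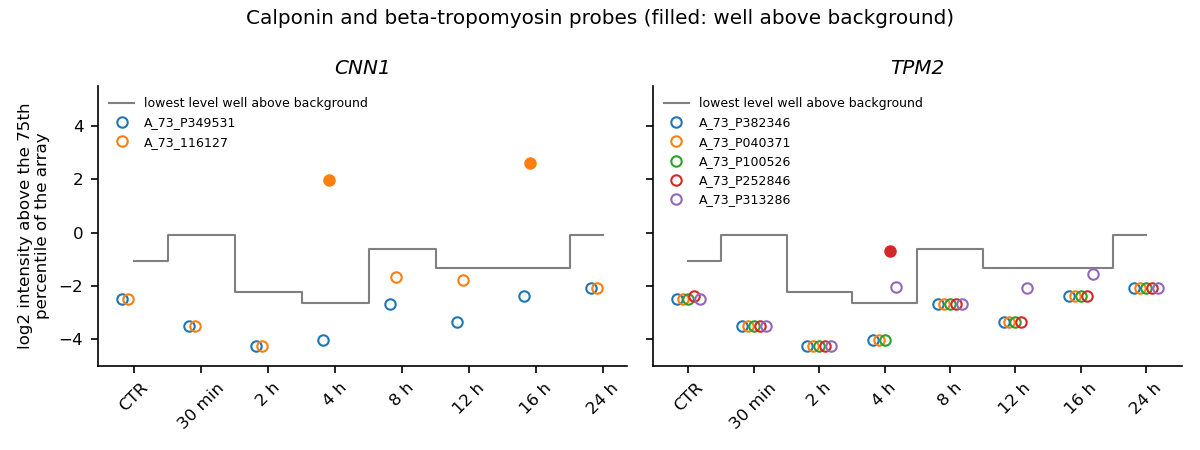
Levels of the CNN1 and TPM2 probes (log2 intensity above the 75th percentile of the array, y axis) on the 8 arrays (x axis). Filled points are well above background, open points are not and stand at or near the shared noise value of the array, and the grey line is the lowest level well above background (at 30 min, the limit used there). Filled points appear at 4 h and 16 h for 1 CNN1 probe and at 4 h for 1 TPM2 probe.

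Of the 18 measured probes, 10 were marked as well above background on the 30 min array itself. These were A_73_P100011, A_73_P252526 and A_73_100037 of VIM, A_73_P046111 of MYL9, A_73_108617 and A_73_P291026 of TAGLN, and A_73_P309193, A_73_118955, A_73_P310201 and A_73_P419024 of TPM1. Counting these probes alone, 7 of 10 were 3-fold lower at 30 min, with a median change of -1.88. Of all probes counted in the same way 10.2% were lower and 2.57% higher. No probe of ACTA2 or CALD1 was marked so.

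Within the first slide, which holds CTR, the 13 contractile probes had a median difference from CTR between -0.77 and -0.23. Over all measured probes the median was -0.13, -0.28 and -0.15 at 8, 12 and 24 h. At 24 h, where the contractile median was -0.23, 1 of the 13 was 3-fold lower. The early time points have no CTR array on their own slide. Within the second slide, the contractile probes lay below 4 h in 13 of 13 cases at 30 min (median -0.92) and in 13 of 13 at 2 h (median -0.76), beside -0.32 and -0.30 over all measured probes. VIM went the other way, above 4 h in 5 of 5 probes at 30 min (median 0.82) and in 4 of 5 at 2 h (median 0.60). At 30 min the differences were -1.29 to -0.16 in the contractile probes, 6 of them of TPM1, and 0.27 to 1.24 in the VIM probes. The share of all probes below 4 h was not computed, and with their median at -0.32 most of them lay below 4 h too. The 30 min levels are the deposited ones, while the slide is known from the scan, which departed from them. The reading on 1 slide thus rests on 2 h, where the median of VIM was above 4 h and that of the contractile probes below it.

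**Figure D4:**
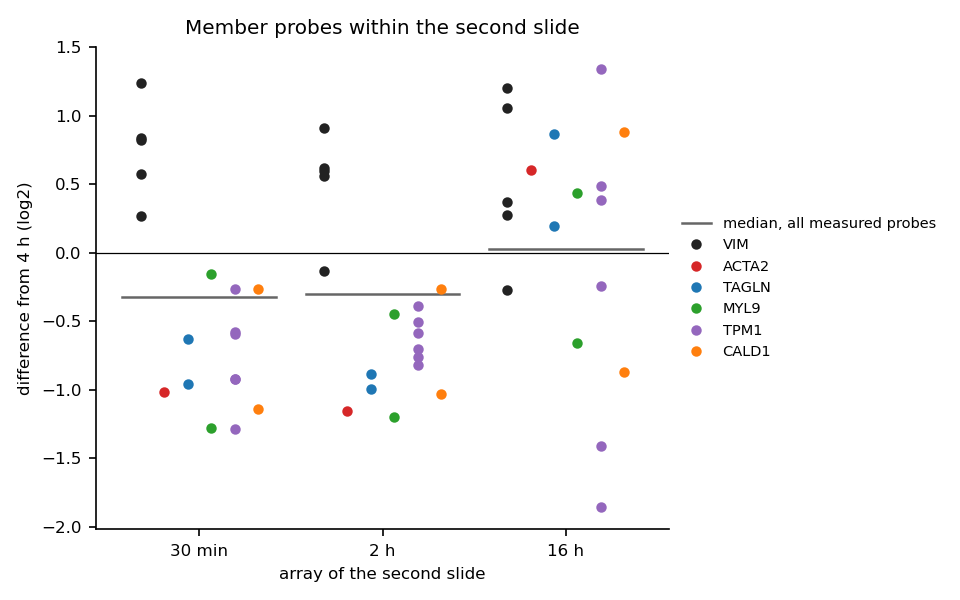
Difference of each measured probe from its level at 4 h (log2, y axis) on the other arrays of the second slide (x axis), coloured by gene, with the median of all measured probes as a grey bar. At 30 min, where the levels are the deposited ones, all 5 VIM probes lie above 0 and all 13 contractile probes below it. At 16 h both kinds lie on either side of 0.

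Set against 16 h in place of 4 h, the contractile probes had a median of -1.08 at 30 min and -1.07 at 2 h, beside -0.32 and -0.30 over all measured probes. VIM was at 0.45 and 0.19 on this reference. From 4 h to 16 h the order of the contractile probes was not uniform, with 8 of 13 higher at 16 h and differences from -1.86 to 1.34.

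Other genes of the contractile and adhesion machinery were summarised by lists. Among smooth muscle and myoepithelial genes outside the 8, 9 of 22 measured probes were 3-fold lower at 2 h and 0 higher, with a median change of -1.40, against -0.41 for all probes measured on both arrays. ACTG2, the enteric smooth muscle actin, changed by -3.04, -3.28 and -2.00 early and by -1.16 at 16 h. PDLIM7, which links actin to signalling kinases, changed by -3.24 at 2 h, and CAV1, the coat protein of caveolae, by -2.71. CSRP1, a LIM protein of smooth muscle, changed by -1.77 at 2 h. The median was -0.44 at 16 h, where 1 of 21 probes was 3-fold lower. Over all probes 8.97% were lower and 2.34% higher at 2 h, and 3.84% were lower and 2.88% higher at 16 h. These shares stand beside the counts of each list below as well. The 16 h count of the smooth muscle list was near the share of the array. Other members of the list were well above background after heat alone. MYH11, the smooth muscle myosin heavy chain, and MYLK, the kinase that phosphorylates MYL9, had no probe well above background in CTR. Each had one at 4 h and 16 h, as CNN1 did, and MYLK also at 2 h. These arrays are all on the second slide, and neither gene had one at 8, 12 or 24 h. Of the 41 probes of the list 23 were well above background in CTR, 30 at 4 h and 26 at 16 h. Over all probes the share well above background was 26.5%, 37.6% and 25.6% on these arrays. The summed level of the list, in units of the 75th percentile of each array, was 747 in CTR, 337 to 455 early and 807 at 16 h.

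Non-muscle actomyosin and actin binding genes, which every cell uses, had 12 of 64 probes 3-fold lower at 2 h (median -0.87) and 3 of 60 at 16 h (median -0.25). Over all probes 8.97% were lower at 2 h and 3.84% at 16 h, so that the 16 h count of this list was near the share of the array. FLNA, an actin cross-linker, changed by -2.41 at 2 h, TMSB10, which binds actin monomers, by -2.57, and ACTN1, the actin bundler alpha-actinin, by -2.35. LIMA1, which stabilises stress fibres, changed by -2.30 at 2 h and by -3.32 at 16 h. Focal adhesion genes had 10 of 19 probes lower at 2 h (median -1.73), among them TNS1 (-2.74), which ties integrins to actin. ITGA5 and ITGB1, the chains of the fibronectin receptor, changed by -2.51 and -2.17, and FHL2, a LIM protein, changed by -1.74 at 2 h.

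In the SRF and YAP list, 7 of 16 probes were 3-fold lower at 2 h and 0 higher, and at 16 h 5 of 14 were lower and 2 higher. CTGF, CYR61 and ANKRD1, targets of both factors, changed by -3.97, -2.95 and -2.61 at 2 h. At 24 h CTGF was at -0.31 and ANKRD1 at -0.75. EGR1, an immediate early gene, was at -0.48 at 2 h and above CTR by 1.23 at 4 h and 2.45 at 16 h. TGF-beta genes had 4 of 9 probes lower at 2 h (median -1.47), with TGFBI at -2.44, TGFB3 at -2.07 and SNAI2 at -1.98.

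Of the other intermediate filament and linker genes, 2 of 6 probes were 3-fold lower at 2 h (median -1.27). LMNB1, a lamin of the nuclear envelope, changed by -2.71 at 2 h and -2.67 at 4 h. DES, the intermediate filament of muscle, was at -0.79 at 2 h and -1.61 at 4 h. A probe of LMNA changed by -5.21 at 2 h and was at 0.01 at 4 h, so that this value stands alone on 1 array.

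**Figure D5:**
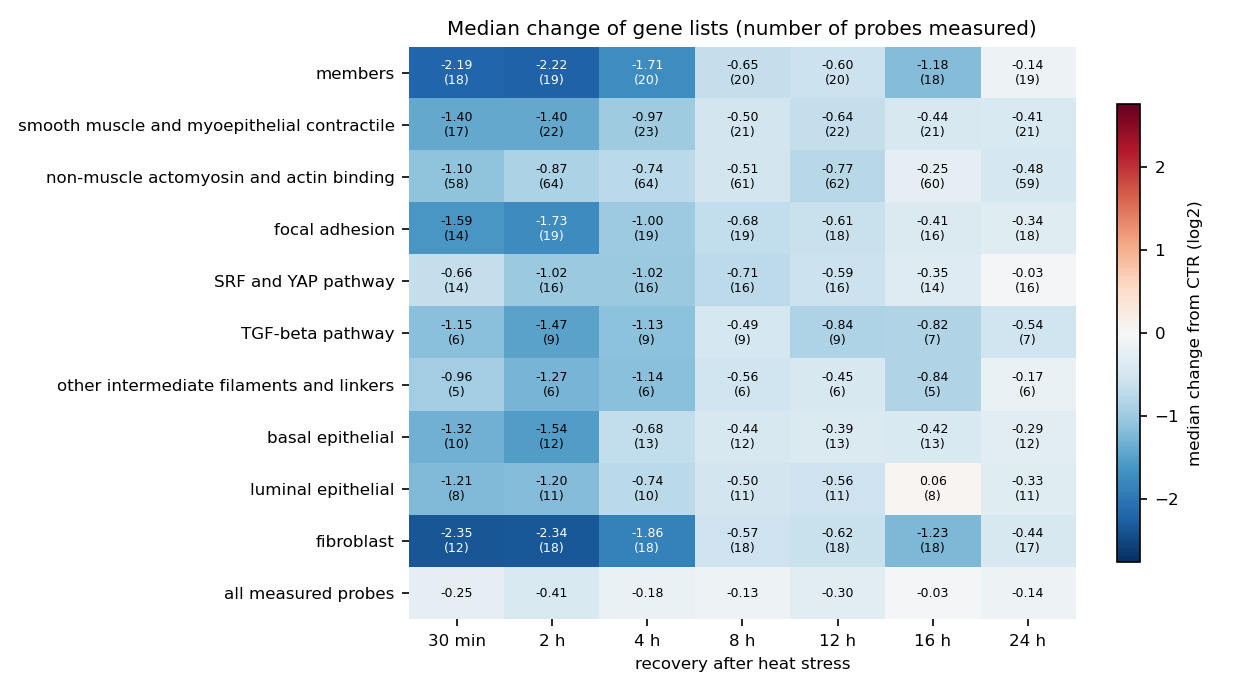
Median change from CTR (log2, colour and number) of each gene list (down) at each recovery time (across), with the number of probes well above background on both arrays in brackets; the top line holds the probes of the 8 genes and the bottom line all measured probes. The 8 genes are at -2.19, -2.22 and -1.71 early, and the fibroblast list at -2.35, -2.34 and -1.86. The fibroblast probes at 30 min are those of FN1 and S100A4 alone.

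Some markers of the cell types that the culture could hold moved as well. The study stained its cultures for cytokeratin 18 as epithelial and vimentin as fibroblast protein. It reported strong cytokeratin 18 signals and weak vimentin staining of few cells, and concluded that fibroblasts were few or absent. The arrays read RNA rather than protein, and buffalo RNA with bovine probes. On them, none of the 3 KRT18 probes was well above background in CTR, while 7 of 9 luminal genes and 6 of 9 basal genes had a probe that was. KRT18 probe A_73_118812 was well above background at 2 h and 16 h, at levels of 0.99 and 0.06, and A_73_P097441 at 2 h, at -0.67. Of 11 measured luminal probes 4 were 3-fold lower at 2 h and 1 higher (8.97% and 2.34% of all). Among the luminal genes KRT8 changed by -2.62 at 2 h and MUC1 by 2.42, while KRT7 and KRT19 were at -1.20 and -1.23. EPCAM probe A_73_108385 and CDH1 probe A_73_P067221 were at -0.12 and 0.11, within the error of 0.35. Of 12 measured basal probes 4 were 3-fold lower at 2 h and 0 higher. The basal genes LAMB3, ITGB4 and KRT17 changed by -3.25, -3.00 and -2.26 at 2 h, and ITGA6 was at -1.16. The KRT5 probes were at -0.80 and -1.87, and KRT14 probe A_73_P309126 was at -1.28.

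Of the fibroblast list, 18 of 61 probes were well above background in CTR, and COL1A2, FAP, LUM, PDGFRA, PDGFRB, POSTN and THY1 had none. The summed level of the list, in units of the 75th percentile of each array, was 1382 in CTR, 462 to 542 early, 761 to 932 on the first slide after heat, and 1029 at 16 h. At 2 h 16 of 18 measured probes were 3-fold lower and 2 higher. These 18 probes belong to 5 genes, and FN1 has 13 probes on the array, so that the count and the median weigh FN1 most. At 30 min the 12 measured probes of the list belong to FN1 and S100A4 alone. FN1, which makes fibronectin, changed by -4.11 at 2 h, COL1A1 by -2.69 and COL3A1 by -2.25, while S100A4 changed by 3.67. DCN, which makes decorin, and COL1A2 had probes that were not well above background in CTR and were at 4 h and 16 h. DCN probe A_73_P099601 was at a level of -2.51 in CTR, 2.35 at 4 h and 6.07 at 16 h. DCN probe A_73_104758 was at 0.89 and 4.47 on these arrays, and COL1A2 probe A_73_P047631 at -0.93 and 2.93. The DCN probe measured in CTR, A_73_111861, was at 0.36 there and 0.73 at 16 h. At 16 h 36 of the 61 probes were well above background, beside 25.6% of all probes (26.5% in CTR), and PDGFRB and POSTN alone had none.

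Of the leukocyte list, 3 of 21 probes were well above background in CTR, 14, 16 and 7 early, 8 at 16 h and 3 or 4 on the first slide after heat. Over all probes that share was 26.5% in CTR, 40.2% at 2 h, 37.6% at 4 h and 25.6% at 16 h. It was 23.3% to 33.5% on the first slide after heat. At 30 min a probe was counted where its deposited level passed the limit used there. The share of all probes above that limit was not computed. The summed level of the list was 13.6 in CTR, 176, 115 and 18.5 early, 34.8 at 16 h and 8.92 to 12.4 on the first slide after heat. CD14, CD3E, CD68, CD74 and ITGAM had no probe well above background in CTR, and ITGAM had none on any array. The 5 probes of CD74, the invariant chain of antigen presentation, were at 1.76 to 4.55 at 30 min and 0.71 to 3.73 at 2 h. All passed the limit used at 30 min and were well above background at 2 h. Of the 4 PTPRC probes, 3 were well above background at 2 h, at 2.08 to 3.11, and 1 in CTR, at 1.72. Measured probes of CD79A and AIF1 were at -1.35 and -0.58 relative to CTR at 2 h. Of 13 endothelial probes, 0 to 2 were well above background on an array. The part of these markers in the changes of the 8 genes was not tested.

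The genes whose profile over the 8 arrays was most like the mean of the 18 probes were TUSC1, FSD1, FBRS, SYNC and SGMS1, with Pearson's r of 0.99 each among 2305 named probes. In this comparison 330 probes had r above 0.9, and the points share the slide split and the scaling of the arrays. SYNC, an intermediate filament protein of muscle, changed by -2.28 at 2 h and -0.22 at 24 h. Among the 18 probes themselves r with their mean was highest in TPM1 probe A_73_P310201 (0.99) and lowest in VIM probe A_73_P339206 (0.44). The mean includes each probe itself, and 13 of the 18 are contractile, 6 of them of TPM1. A higher r in contractile than in VIM probes is thus partly set by how the mean is made. The 5 VIM probes had r of 0.44 to 0.78 and ACTA2 had 0.62, while TAGLN, MYL9 and TPM1 probes had 0.87 to 0.99 and CALD1 probes 0.78 and 0.86.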

How the data were processed

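Each of the 8 RNA samples was measured on its own 1-colour (Cy3) bovine 4x44K array. The authors deposited the scanner output with the processed intensity of each spot (Feature Extraction 9.5.3.1, per the file headers) and a table of log2 values scaled by their array's 75th percentile. Here log2 of the processed intensity minus the 75th percentile of the array was used for 7 arrays. For 30 min, the CTR level plus the deposited log2 difference was used, and a probe counted as measured above the highest limit of detection among the 7, a choice made after seeing the data. Spots of 1 probe were averaged, and outlier spots and the region at rows 216 to 330 and columns 30 to 59 were left out. The 3-fold cutoff is that of the methods. No test was possible with 1 array per condition.

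The members and lists were chosen with earlier results of these data known. Named were every probe of the 8 genes, up to 4 genes per list with the largest change, the cell type markers, and the 5 genes most alike in profile among probes with an SD of at least 0.5. One gene that this rule names is not reported here. The lists were smooth muscle, non-muscle actomyosin, focal adhesion, SRF and YAP, TGF-beta, other intermediate filaments, and basal, luminal, fibroblast, leukocyte and endothelial markers; PXN, PLEC, MRTFA, MRTFB, CCN1 and CCN2 are not named on the array. Alternatives covered background correction, normalization, deposited values, filters, the region, the local deviation (bright probes within 10 spots) and a 2-fold cutoff. The 30 min mark and 1 value per gene were added after seeing the data. The calculation was tested on simulated data. All 8 symbols matched buffalo gene models. Python 3.11.15, numpy 2.4.6, pandas 2.3.3, scipy 1.17.1, matplotlib 3.10.9, R 4.3.3 and limma 3.58.1 were used.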

Additional observations from a re-analysis of the deposited data

How the results depend on the processing

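With 1 array per condition no value has a replicate error, slide and early time cannot be told apart, and no paired analysis was possible because each condition had 1 array. Counts of probes 3-fold lower were within 1.5 times the reported count in 57 combinations of a setting and a time point and moved in 16. Those of the 57 at 8 h and 12 h were all 0 against 0. For probes 3-fold higher the numbers were 68 and 5, all 68 being 0 against 0. With normexp the lower count was 9 at 2 h and 3 at 4 h, and with array medians 9, 0 and 2 at 2, 4 and 24 h. Without a filter on dim probes it was 23 at 2 h and 2 at 24 h. At 24 h it was 0 with quantile normalization and 0 with the local deviation subtracted. At a 2-fold cutoff it was 19 at 4 h and, for the late time points in order, 1, 3, 11 and 2. At 30 min it was 7 of 10 with the mark of that array required and 1 with its scanner intensities, which gave 2 higher. Where 1 of both arrays sufficed, 1 probe was higher at 4 h and 1 at 16 h, and without the filter 2 and 1. The median change with normexp was -1.46, -0.82 and -0.13 at 2, 4 and 12 h, and with array medians -1.49, -0.46 and -0.53 at 2, 4 and 24 h. It was -1.88 at 30 min with the mark required, and without a filter -1.82 at 30 min and -0.38 at 8 h. Over 368 combinations of a probe value past 3-fold and a setting, 3 changed sign, all with the 30 min scanner intensities, namely TPM1 A_73_118955 (0.77), MYL9 A_73_P046111 (0.76) and TAGLN A_73_P291026 (0.44). The cause was not tested. Signal over background limits CNN1 and TPM2, for which CTR gives only a bound.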
